A study of Mus musculus with 36 samples.

Results

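Brains of newborn (P0) female Chd8+/S62X (HT) mice were compared with those of P0 female wild-type (WT) mice, using 6 of the 36 RNA sequencing libraries of the study, 3 per genotype (HT1 to HT3 and WT1 to WT3). The libraries were chosen by their labels for age, sex and genotype. The study also sampled males, P25 (juvenile) and P80 (adult) mice, which are used here only to look at the same genes in other animals. For the oldest group, the sample descriptions carry a younger age than P80, while the sample titles and the methods give P80. It is called P80 here, and its age is uncertain to that extent. All mice were C57BL/6. HT mice carried 1 copy of the S62X allele, which puts a stop codon in place of a serine codon of Chd8, and no other allele, agent or treatment is given for either genotype. The methods state 3 mice per group, and pooling of mice is not described. The mutation is carried in the germline and is not limited to a cell type or time, so a difference cannot be assigned to a cell type, and in bulk tissue fewer cells of a type and less RNA per cell cannot be told apart. Values are normalized estimated fragment counts, and log2 fold changes are HT minus WT on log2(value + 1) throughout.

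CHD8 is an ATP-dependent chromatin remodeler of the chromodomain helicase DNA-binding family that binds the promoters of many active genes. It has been described as a repressor of Wnt/beta-catenin and p53 target genes, and heterozygous loss-of-function mutations of CHD8 are among the most recurrent single-gene findings in autism spectrum disorder. In the newborn brain, it is expressed widely in progenitors and young neurons. Chd8 (ENSMUSG00000053754) lies on the minus strand of chromosome 14 of GRCm38. Codon 62 of its longest coding transcript lies in exon 2, and the reference sequence around it, at chr14:52237357-52237419, is shown because this codon is the one replaced in the HT mice. The 3 capitals mark the serine codon, and the base change made in the allele is not stated.
Chd8 reference, codon 62: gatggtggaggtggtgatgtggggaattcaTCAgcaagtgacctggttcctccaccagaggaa

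Before any difference between genotypes can be read, the libraries have to be described, because they did not hold the same parts of the brain. The normalized value of Emx1, a transcription factor of the dorsal forebrain, was 44.4, 644 and 1.21 in HT1, HT2 and HT3 and 505, 19.1 and 493 in WT1, WT2 and WT3. That of En2, a transcription factor of the midbrain and cerebellar territory, was 701, 1.57 and 1637 in HT1, HT2 and HT3 and 4.54, 1060.0 and 4.24 in WT1, WT2 and WT3. HT1, HT3 and WT2 were thus high in En2 and low in Emx1, while HT2, WT1 and WT3 were high in Emx1 and almost without En2. Tbr1, a factor of young cortical neurons, was 502, 5307 and 118 in HT1, HT2 and HT3 and 6943, 125 and 5672 in WT1, WT2 and WT3. All libraries are labelled as whole brain, and these values go against that label, since HT2, WT1 and WT3 lacked most midbrain and hindbrain transcripts and HT3 lacked most telencephalic transcripts.

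The split was only partly aligned with genotype, with 2 En2-high HT libraries against 1 En2-high WT library. The first principal component held 61.8% of the variance over the 18291 genes with a mean of at least 10, and it separated the En2-high from the En2-low libraries. Between En2-high and En2-low libraries, 1970 genes (10.8%) differed by more than 1 on the log2 scale, whereas 590 genes (3.23%) did so between HT and WT. Summed over genes, the libraries held 35069338, 32717163 and 35694737 normalized counts in HT1, HT2 and HT3 and 35894576, 35813310 and 37089488 in WT1, WT2 and WT3. The fragment counts behind these totals cannot be recovered from the normalized values, so the sequencing depth is not known here. The list medians of HT minus WT show the same imbalance, with -1.16 for 12 telencephalic, 2.33 for 16 midbrain and hindbrain and 2.69 for 10 caudal Hox genes, against -0.20, 0.17 and 0.76 with a term for region in the fit. Libraries of the same En2 level also differed among themselves. Tcf7l2, a factor of the thalamus that is the most abundant of 12 diencephalic genes tested, was 563, 1570.0 and 6304 in HT1, HT2 and HT3 and 297, 13550.2 and 8359 in WT1, WT2 and WT3, so that WT1 lay far below WT3 and HT1 far below WT2. HT1 differed further from the other En2-high libraries in posterior Hox genes, with Hoxb5 at 2795, 0 and 270.0 in the HT and 0.990, 322 and 3.005 in the WT libraries. Xist ranged from 82908 to 120928, and the highest value of Ddx3y, Eif2s3y, Kdm5d or Uty in any of the 6 libraries was 3.99 (Kdm5d in HT1), so each library fitted its female label.

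**Figure D1:**
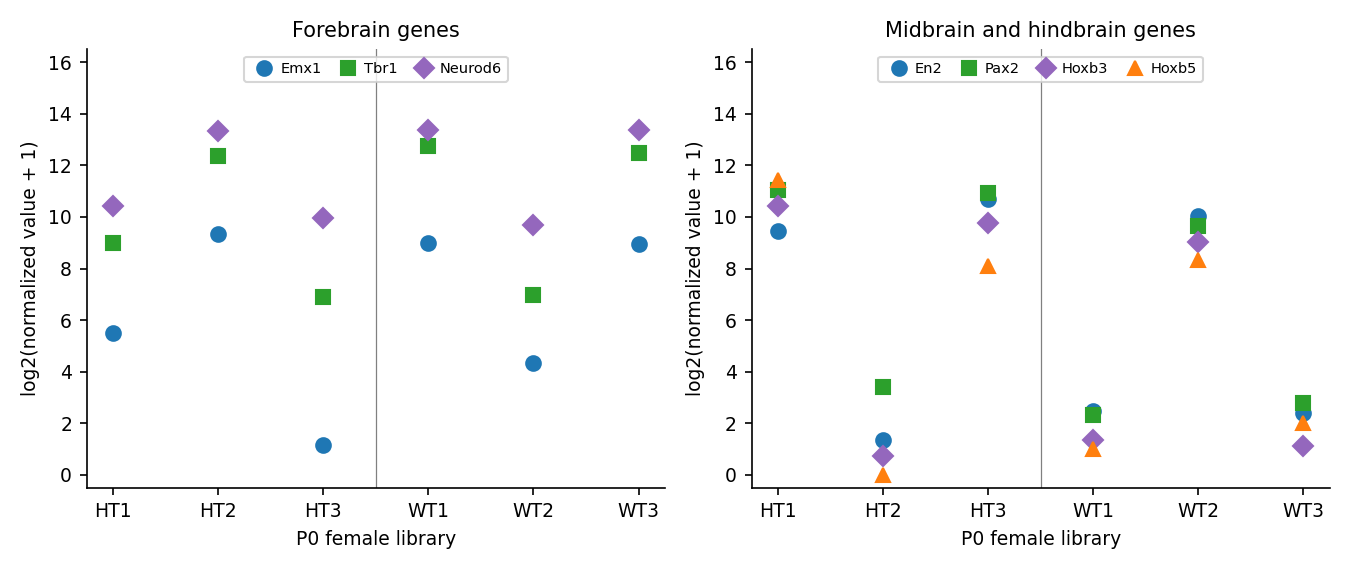
Normalized values (log2 of value plus 1) of 3 forebrain genes (left) and 4 midbrain and hindbrain genes (right) in each P0 female library, with HT left and WT right of the grey line. HT1, HT3 and WT2 are low on the left and high on the right, and HT2, WT1 and WT3 show the opposite order.

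Genotype differences were tested with limma over the 18291 genes, and 1 gene passed an adjusted p of 0.05 (0.00547% of those tested). At an unadjusted p under 0.05 there were 393 genes (2.15%), with 228 higher (1.25%) and 165 lower (0.902%) in HT mice. For 1345 genes (7.35%) the genotypes were separated, meaning that all HT values lay above all WT values or all lay below them. Of these, 618 were higher (3.38%) and 727 lower (3.97%) in each HT library. An exact two-sided permutation test of 3 libraries against 3 gives p = 0.1 for every such gene, the smallest p it can give. With a term for En2-high or En2-low libraries in the fit, called the region term below, 799 genes (4.37%) had an unadjusted p under 0.05, 379 higher (2.07%) and 420 lower (2.3%), and again 1 gene passed the adjusted threshold. The genes described in the following did not pass the correction for multiple testing, except where this is stated. The Emx1 and En2 values above belong to each library named.

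Chd8 transcripts were 7936, 9913 and 9696 in HT1, HT2 and HT3 and 9165, 7206 and 8818 in WT1, WT2 and WT3, and the genotypes overlapped. The value counts both alleles together and was 9181 ± 1084 (SD, n = 3) for HT against 8396 ± 1046 (SD, n = 3) for WT mice. The log2 fold change was 0.13 (SE 0.15, limma unadjusted p = 0.417, adjusted p = 0.976), with a 95% interval of -0.23 to 0.49, and it was 0.21 with the region term. Halving of Chd8 mRNA, a log2 fold change of -1, lies outside that interval. Chd8 was also not separated in P0 males (log2 fold change 0.25). In the older mice each HT library was above each WT library, with log2 fold changes of 0.54 in P25 females (limma adjusted p = 0.0723), 0.70 in P25 males (0.0162), 0.36 in P80 females (0.0405) and 0.47 in P80 males (0.041). Among the other 9 members of the CHD family, Chd5, a neuronal remodeler, was lower in each HT library (10421, 11546 and 11104 in HT1, HT2 and HT3 and 12505, 13218 and 12274 in WT1, WT2 and WT3, log2 fold change -0.20). Without the region term none of the 10 members had an unadjusted p under 0.05 (2.15% of all genes did), 1 was lower in each HT library (3.97% of all genes), and their median log2 fold change was 0.08, beside -0.01 over all genes. With the region term 1 member was higher and 1 lower at an unadjusted p under 0.05, beside 2.07% and 2.3% of all genes in that fit. Chd3, a subunit of the NuRD complex, was 17301, 30618 and 18197 in HT1, HT2 and HT3 and 43095, 22492 and 37725 in WT1, WT2 and WT3, higher in En2-low libraries, and its log2 fold change with the region term was -0.37 (limma unadjusted p = 0.0104), with -0.40 within the En2-low and -0.34 within the En2-high libraries. Chd7, the remodeler mutated in CHARGE syndrome, was 5226, 2277 and 6549.5 in HT1, HT2 and HT3 and 1939, 3653 and 2207 in WT1, WT2 and WT3, higher in En2-high libraries, with 0.41 on the log2 scale with the region term (limma unadjusted p = 0.0352).

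The only differentially expressed gene (DEG) was Gm8430 (ENSMUSG00000055093), a processed pseudogene on chromosome 6 (chr6:122456904-122457374, plus strand). It was listed at 0 in all 3 HT libraries and at 185, 199.8 and 264 in WT1, WT2 and WT3 (limma adjusted p = 0.00279). Since HT values are 0 and no counts are given, no fold is stated. A pseudogene of this kind is a copy of a spliced messenger RNA, here that of Rps27a, which encodes a fusion of ubiquitin with a ribosomal protein of the small subunit. Over all 471 bases the annotated transcript of Gm8430 matched the Rps27a messenger RNA at 99.8%, with 1 mismatch, A71G, counted from the first base of Gm8430 and given from Rps27a to Gm8430. The stretch around it is printed to show how little separates reads of the copy from reads of the parent, with the differing base in capitals and each line read along its own transcript; the Rps27a stretch lies in its coding sequence on the minus strand.
Gm8430, chr6:122456960-122456988: ctcggacactatagGaaatgtaaaggcca
Rps27a, chr11:29547224-29547252: ctcggacactatagAaaatgtaaaggcca

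Rps27a itself was far more abundant, at 2863, 6052 and 3638 in HT1, HT2 and HT3 and 6756, 3854 and 4954 in WT1, WT2 and WT3, and these genotypes overlapped. In P0 males Gm8430 was at 0, 121 and 0 in the HT and 0, 312 and 399 in the WT libraries, so that both genotypes held libraries at 0. It was at 0 in 25 of the 36 libraries of the study, and the P25 and P80 libraries reached at most 9.63. How fragments were shared between copy and parent was not tested. For the log2 fold change of Gm8430, the limma adjusted p was 0.0667 without WT1, 0.0875 without WT2 and 0.121 without WT3, so that the call was lost without any 1 of them.

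Gad1, the glutamate decarboxylase that makes most of the GABA in the brain, was lower in HT mice. Its values were 4133, 4398 and 4854 in HT1, HT2 and HT3 and 6657, 6239.6 and 6029 in WT1, WT2 and WT3, so that the highest HT library lay below the lowest WT library. It averaged 4462 ± 365 (SD, n = 3) for HT against 6309 ± 320.0 (SD, n = 3) for WT mice, a log2 fold change of -0.50 (SE 0.114, limma unadjusted p = 0.00343, adjusted p = 0.976). En2 and Emx1 differed strongly among these libraries while Gad1 did not follow them, and the log2 difference was -0.53 within the En2-low and -0.48 within the En2-high libraries. It was -0.50 with the region term. With any 1 library left out, the log2 fold change of Gad1 stayed between -0.56 and -0.45.

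Gad2, the second GABA-synthesizing enzyme, was likewise lower in each HT library, at 4129, 4305 and 4060.3 in HT1, HT2 and HT3 and 6540.1, 4875 and 5379 in WT1, WT2 and WT3. Its log2 fold change was -0.42 (SE 0.137, limma unadjusted p = 0.0197, adjusted p = 0.976). Slc32a1, which loads GABA into vesicles, was 2938, 1911 and 3156 in HT1, HT2 and HT3 and 2409.5, 3167 and 2366 in WT1, WT2 and WT3 and followed the En2 level rather than the genotype. Abat, which degrades GABA, was 7579, 4261 and 7337 in HT1, HT2 and HT3 and 5788, 7369.5 and 5282 in WT1, WT2 and WT3, with overlapping genotypes and a log2 fold change of 0.02. Abat was also higher in the En2-high libraries, and its log2 fold change was -0.18 with the region term, so that the sign turned.

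Of 30 genes listed as GABAergic, 3 were lower in each HT library (Gad1, Gad2 and Six3) and none was higher, beside 3.97% and 3.38% of all genes. Their median log2 fold change was -0.46, and it was -0.05 with the region term and 0.07 without HT3. The forebrain interneuron factors followed region and not genotype. Dlx1 was 646, 5659 and 11.3 in HT1, HT2 and HT3 and 7697, 56.6 and 6894 in WT1, WT2 and WT3, with HT1, HT3 and WT2 low, and the same 3 libraries were lowest in Dlx2, Dlx5, Dlx6 and Lhx6. Gata3, a factor of midbrain and hindbrain GABAergic neurons, was 415, 15.2 and 454 in HT1, HT2 and HT3 and 3.95, 1425 and 62.4 in WT1, WT2 and WT3, with the same libraries high. Six3, a forebrain factor also found in striatal precursors, was lower in each HT library (73.7, 546 and 339 in HT1, HT2 and HT3 and 836, 683 and 1084 in WT1, WT2 and WT3), a log2 fold change of -1.83, and its HT values varied several-fold among themselves. The Six3 difference was -1.45 with the region term and -0.98 without HT1.

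On the receiving side, the 22 genes of GABA and glycine receptors, their scaffold and chloride transporters held 3 that were lower in each HT library (Gabrg3 and Gabrb2 among them) and none that was higher, beside 3.97% and 3.38% of all genes. Gabrg3, a GABA-A receptor subunit, was 1437, 1164 and 1289.8 in HT1, HT2 and HT3 and 1544, 1676 and 1769 in WT1, WT2 and WT3, a log2 fold change of -0.36 (SE 0.132, limma unadjusted p = 0.0297, adjusted p = 0.976). Gabrb2, another subunit gene, was 1573, 2132 and 2137 in HT1, HT2 and HT3 and 2246, 2214 and 2250.5 in WT1, WT2 and WT3, a log2 fold change of -0.21 with a 95% interval of -0.57 to 0.14. The median of the 22 was 0.03, and -0.13 with the region term. Sst and Npy, neuropeptides of GABAergic neurons, overlapped between genotypes, with log2 fold changes of -0.03 and -0.91, and Npy, at 510.3, 1994 and 529 in HT1, HT2 and HT3 and 2932, 485 and 2494 in WT1, WT2 and WT3, was high in the En2-low libraries and had a log2 fold change of -0.17 with the region term.

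**Figure D2:**
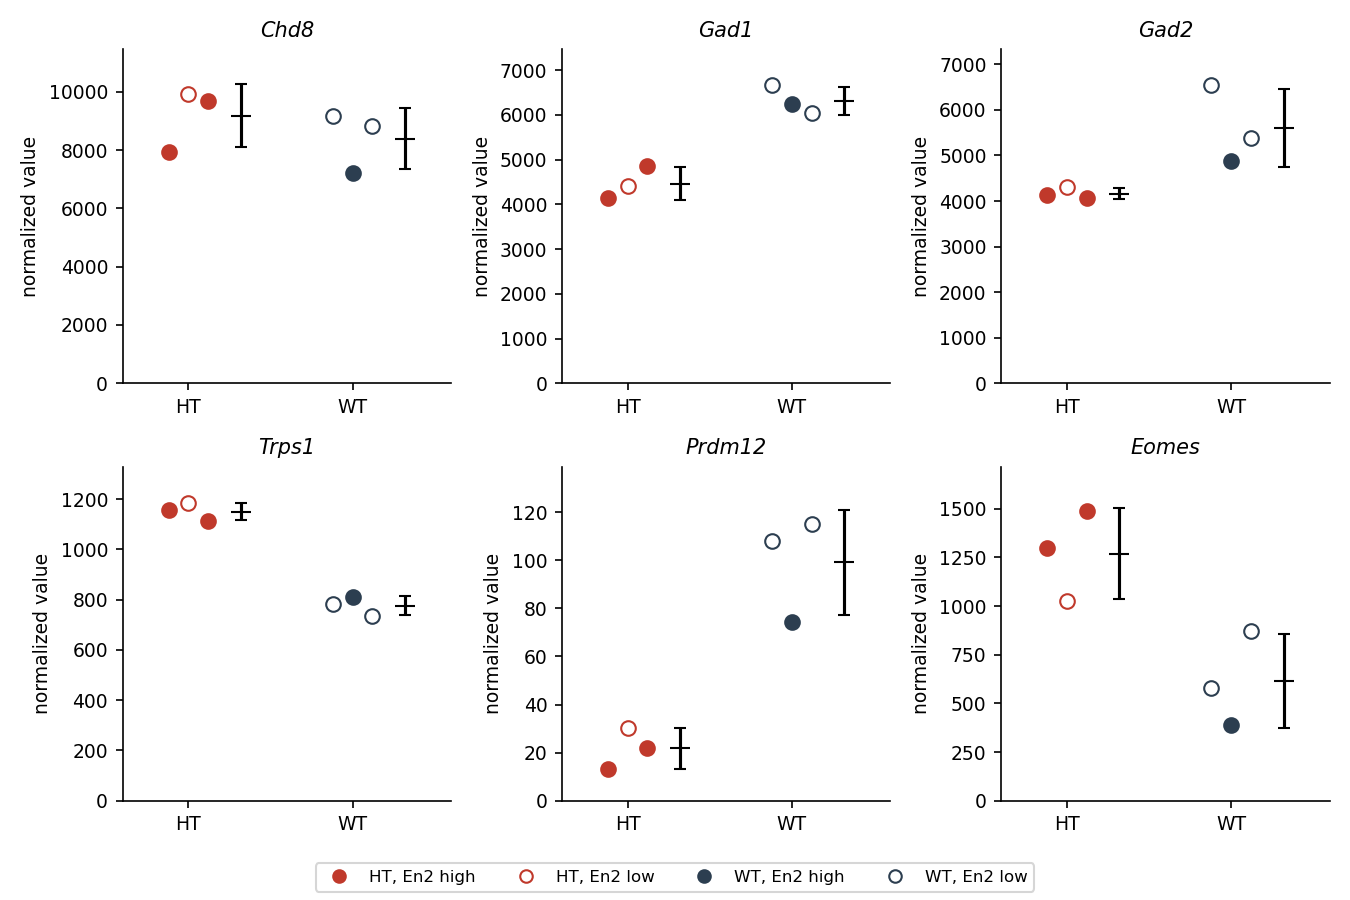
Normalized values of Chd8, Gad1, Gad2, Trps1, Prdm12 and Eomes in each P0 female library (y axes start at 0; filled points are En2-high and open points En2-low libraries; bars give the mean and SD of 3 libraries). HT and WT points overlap for Chd8 and are apart for the other 5 genes. For genes whose genotypes are apart, filled and open points of a genotype lie on the same side by definition.

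Trps1, an atypical GATA-type zinc finger protein that acts as a transcriptional repressor and is mutated in tricho-rhino-phalangeal syndrome, was higher in HT mice. It was 1156, 1183 and 1113 in HT1, HT2 and HT3 and 782, 809.5 and 737 in WT1, WT2 and WT3, and the spread within either genotype was small. The averages were 1151 ± 35.3 (SD, n = 3) for HT against 776 ± 36.8 (SD, n = 3) for WT mice, a log2 fold change of 0.57 (SE 0.118, limma unadjusted p = 0.00209, adjusted p = 0.976). The difference was 0.64 within the En2-low and 0.49 within the En2-high libraries, and 0.56 with the region term. The other GATA factors and their cofactors were examined beside it. Trps1 was the only one of 11 tested members whose genotypes did not overlap, beside 7.35% of all genes. Gata2 was 533, 298 and 459 in HT1, HT2 and HT3 and 282, 638 and 142 in WT1, WT2 and WT3 and Zfpm2, a cofactor of GATA proteins, was 1379, 1016 and 2065 in HT1, HT2 and HT3 and 743, 2025 and 1106 in WT1, WT2 and WT3, both following En2. The list median was 0.28, and -0.05 with the region term. Tal1, Gata6, Zfpm1, Lmo1, Lmo2 and Ldb1 overlapped between genotypes as well.

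Prdm12, a PR-domain factor best known for specifying pain-sensing neurons, had the smallest unadjusted p of the genes with a mean of at least 50 apart from Gm8430 and 1 unnamed gene model. Its values were low throughout, at 13.3, 30.2 and 21.8 in HT1, HT2 and HT3 and 108, 74.3 and 115 in WT1, WT2 and WT3, with each HT library below each WT library. The averages were 21.8 ± 8.43 (SD, n = 3) for HT against 99.1 ± 21.8 (SD, n = 3) for WT mice, a log2 fold change of -2.18 (SE 0.381, limma unadjusted p = 0.000788, adjusted p = 0.976) with a 95% interval of -3.09 to -1.27. Within the En2-low libraries the difference was -1.85 and within the En2-high libraries -2.06. Among the 14 tested PRDM genes it was alone in being separated, beside 7.35% of all genes, and their median was 0.12, or 0.02 with the region term. Prdm8 and Prdm13, which act in neuron development, had log2 fold changes of 0.23 and 0.81 with overlapping genotypes, and Prdm16, a factor of radial glia, of -0.51. With the region term these values were 0.55, -0.49 and -0.30, so that the sign turned for Prdm13.

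Because Prdm12 marks sensory neurons, the list of sensory ganglion and neural crest genes was set beside it. Pou4f1, a factor of sensory and midbrain neurons, was 547, 0.659 and 642 in HT1, HT2 and HT3 and 5.43, 1092 and 153 in WT1, WT2 and WT3 and followed En2. The median of the list was 0.76, and -0.05 with the region term. Of 16 tested members, Prdm12 was lower and Foxd3, a crest factor with values of 80.3, 46.4 and 60.9 in HT and 9.15, 43.3 and 0 in WT libraries, was higher in each HT library, beside 3.97% and 3.38% of all genes. Whether the amount of attached ganglion tissue bears on Prdm12 was not tested.

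The further genes of the set with the smallest unadjusted p and higher values in each HT library were Dsc3, Ror1, Tanc1, Cecr2, Bmf, Cyb5rl and Zfp993. Cecr2, a bromodomain protein of a chromatin remodeling complex needed for neural tube closure, was 903, 675 and 969 in HT1, HT2 and HT3 and 309, 462 and 537 in WT1, WT2 and WT3, a log2 fold change of 0.98 (SE 0.251, limma unadjusted p = 0.00618, adjusted p = 0.976). Ror1, a receptor tyrosine kinase-like Wnt receptor, was 337, 231 and 249 in HT1, HT2 and HT3 and 104, 156 and 79.3 in WT1, WT2 and WT3, a log2 fold change of 1.30. Its lowest HT value exceeded the highest WT value, the En2-high WT2.

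Tanc1, a scaffold of the postsynaptic density, was 1076, 757 and 807 in HT1, HT2 and HT3 and 435, 570.2 and 531 in WT1, WT2 and WT3, with a log2 fold change of 0.77. Bmf, a pro-apoptotic BH3-only protein, was 370.1, 493 and 434 in HT1, HT2 and HT3 and 256, 295 and 234 in WT1, WT2 and WT3, a log2 fold change of 0.72. In both genes the WT libraries lay close together and HT2, the En2-low HT library, lay on the same side as the other HT libraries. Dsc3, a desmosomal cadherin, was 67.6, 127 and 70.5 in HT1, HT2 and HT3 and 10.3, 33.7 and 18.8 in WT1, WT2 and WT3, a log2 fold change of 2.11 and a 95% interval of 0.94 to 3.29. Cyb5rl, a reductase-like gene, had a log2 fold change of 1.22, and Zfp993, a zinc finger gene that shares 99.7% of 1019 aligned bases with Zfp991, of 1.47. Reads of Zfp993 and Zfp991 may not be told apart, so that the value of Zfp993 is uncertain.

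Lower in each HT library were, besides Prdm12 and Gad1, the genes Entpd4, Cpne5, Xlr3b, Spx, Arhgef10l and Phc1. Phc1, a subunit of the Polycomb repressive complex, was 5855, 6371 and 5647 in HT1, HT2 and HT3 and 7461, 7721 and 8294 in WT1, WT2 and WT3, a log2 fold change of -0.39 (SE 0.11, limma unadjusted p = 0.00956, adjusted p = 0.976). Cpne5, a calcium-dependent membrane-binding copine, was 1398, 1472 and 1301 in HT1, HT2 and HT3 and 2247, 1986 and 1774 in WT1, WT2 and WT3, a log2 fold change of -0.52. Arhgef10l, a guanine nucleotide exchange factor, was 1704, 1601 and 1840.1 in HT1, HT2 and HT3 and 2339, 2300.0 and 2168 in WT1, WT2 and WT3, a log2 fold change of -0.40. For Phc1 and Arhgef10l the gap between the genotypes was wider than the range within either, while the gap of Cpne5 was narrower than its WT range. Spx, the precursor of the neuropeptide spexin, had a log2 fold change of -0.94. Xlr3b, an imprinted X-linked gene, was 88.8, 109.6 and 48.2 in HT1, HT2 and HT3 and 374, 469 and 139.9 in WT1, WT2 and WT3, and it matches Xlr3a at 98.0% over 3785 aligned bases, so that their reads may not be told apart.

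**Figure D3:**
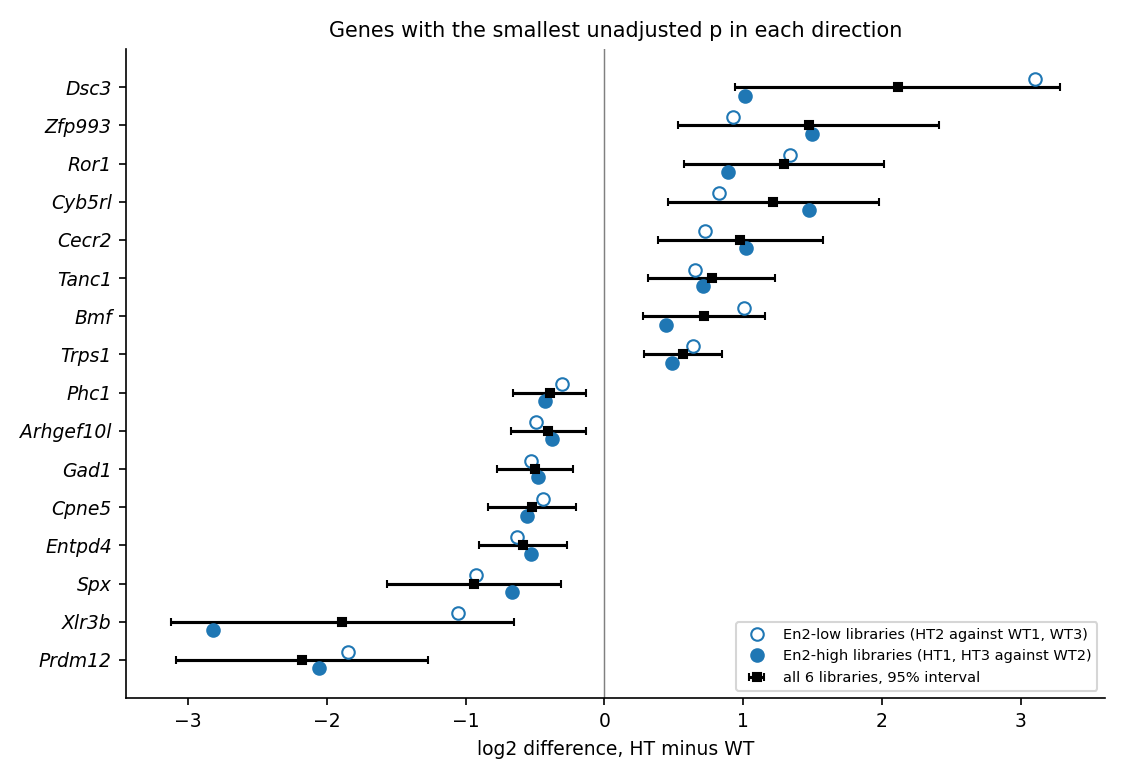
Log2 difference (HT minus WT) of the 8 higher and 8 lower genes with the smallest unadjusted p (squares, all 6 libraries with 95% interval) and the same difference within the 3 En2-low (open circles) and the 3 En2-high libraries (filled circles). Open and filled circles lie on the same side of 0 for each of the 16 genes.

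The difference in these 16 genes kept its sign within both the En2-low and the En2-high libraries, and also with the region term and with each library left out in turn. Since the genes were chosen for separated libraries, agreement of sign within the 6 libraries is fixed by that choice and is not a separate result. The same holds for any other gene whose genotypes were separated, such as Gad2, Cux1 and Eomes. Samples that played no part in the choice are those of the other ages and of males, which share no library with P0 females. In P0 males 12 of the 16 genes had the same sign and 4 (Ror1, Cecr2, Entpd4 and Cpne5) were separated in the same direction, where 12.1% of all genes were separated in either direction and 0% passed an adjusted p of 0.05. The P0 male HT libraries were all high in En2 (2201, 1478 and 1106) and the WT libraries were not (75.1, 5.99 and 3.23), so region and genotype cannot be told apart there. At P25 and P80 the same sign was found for 8 of 16 in females and for 11 and 10 of 16 in males, and separation in the same direction for 1 gene at P25 and 1 at P80 in females and for 3 and 3 in males. Separation in the opposite direction was found for 2 genes in P25 females (Bmf and Zfp993), 2 in P80 females (Dsc3 and Cecr2) and 0 in males of either age. Of all genes, 11.9% and 17.6% were separated in P25 and P80 females and 8.55% and 9.54% in P25 and P80 males. Entpd4 was the 1 gene of the 16 that passed an adjusted p of 0.05, in P25 males (0.0166% of all genes), P80 females (0.0385%) and P80 males (0.0166%).

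Gad1, Trps1 and Prdm12 were not separated by genotype in P0 males. Gad1 was 5303, 5110.2 and 4688 in male HT and 3977, 4305 and 5679.7 in male WT libraries. Gad2 was lower in each male HT library, at 3469, 3896 and 3257 in HT and 4085, 5899 and 5560 in WT libraries. Its male log2 fold change was -0.54, and 12.1% of all genes were separated in P0 males, where region and genotype cannot be told apart. The HT minus WT difference of Gad1 was lower in females than in males by 0.63 on the log2 scale (limma interaction, unadjusted p = 0.00771, adjusted p = 1). The male libraries held Prdm12 at 69.7, 60.6 and 79.9 with the HT genotype and at 5.86, 87.0 and 17.8 with the WT genotype, with the higher mean in HT, unlike in females, and with WT2 above all HT libraries. Its interaction was -3.83 (limma unadjusted p = 0.00313, adjusted p = 1). Trps1 was 1194, 1233 and 979.7 in male HT and 1192, 933 and 828 in male WT libraries, and its interaction was 0.35 (limma unadjusted p = 0.119). Gad1, Prdm12 and Trps1 were named with earlier results of these data known, and the interaction uses the same female libraries. Its unadjusted p-values for these genes are biased by that choice and are not a separate result. Over 18338 genes, limma called 0 sex by genotype interactions at an adjusted p under 0.05 and 179 (0.976%) at an unadjusted p under 0.05. By P25 and P80 the log2 fold change of Gad1 was between -0.07 and -0.03, and that of Trps1 between -0.11 and 0.02. Prdm12 had log2 fold changes of -0.50 and -0.68 in P25 females and males and of -0.43 and 0.24 in P80 females and males. Gad1 and Prdm12 were each lower in every HT library in P25 males (8.55% of all genes were separated there), and neither they nor Trps1 were separated in the other older groups.

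Entpd4 stood apart from the other 15 genes in this respect. It encodes a nucleoside diphosphatase of the Golgi and lysosomes and lies on chromosome 14, as Chd8 does, at chr14:69337174-69367270. In P0 females it was 1845, 1861 and 1937 in HT1, HT2 and HT3 and 3295, 2726 and 2521 in WT1, WT2 and WT3, a log2 fold change of -0.59 (SE 0.134, limma unadjusted p = 0.00338, adjusted p = 0.976). At P25 the female values were 3591, 3388 and 3488 for HT against 4296, 4524 and 4563 for WT mice, and at P80 they were 3890.3, 3881 and 3628 and 5352, 4909 and 5024. Each HT library was below each WT library in all 6 comparisons of age and sex. The log2 fold change of Entpd4 was -0.35 in P25 females (limma adjusted p = 0.0723) and -0.42 in P80 females (limma adjusted p = 0.0328). Its annotated transcript matches that of Entpd4b over all 3589 bases at 100%, and Entpd4b was not analysed here, so the value of Entpd4 may hold reads of both.

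**Figure D4:**
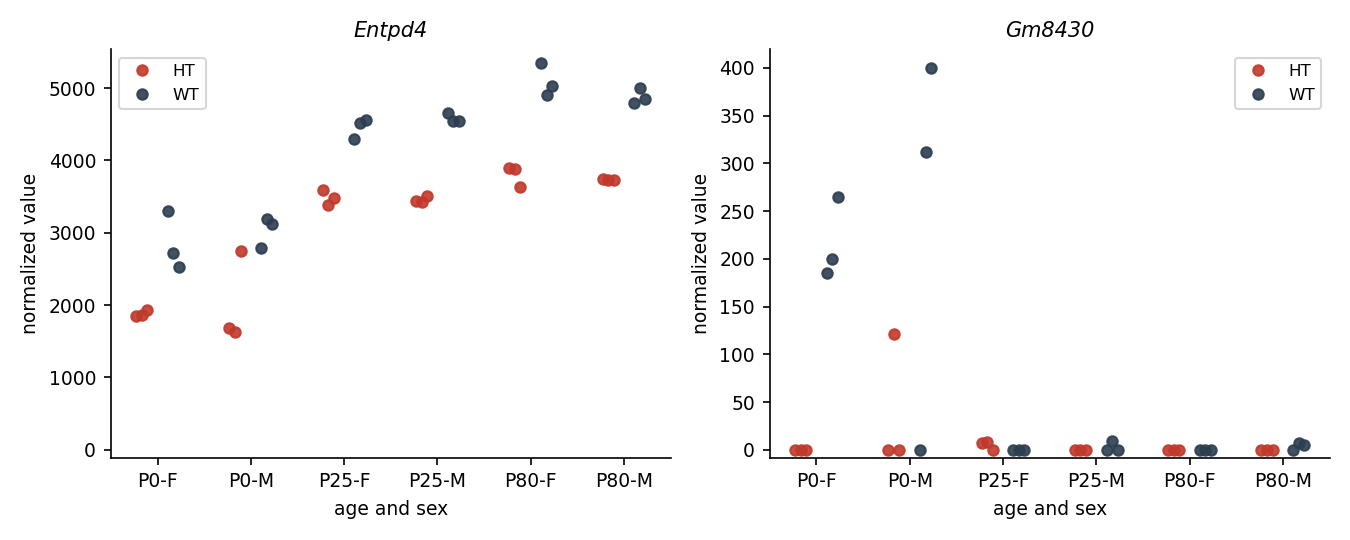
Normalized values of Entpd4 (left) and Gm8430 (right) in all 36 libraries by age and sex (F, female; M, male; red, HT; dark, WT; 3 libraries each). All red points of Entpd4 lie below all dark points of the same age and sex, and Gm8430 is above 10 only in P0 libraries.

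Of the 33 gene lists, that of mitosis had the most members higher in each HT library. Of 24 genes of mitosis, 10 were higher in each HT library and none was lower, beside 3.38% and 3.97% of all genes, and 6 had an unadjusted p under 0.05 with a higher value (1.25% of all genes). None passed the adjusted threshold. Mki67, the proliferation antigen, was 4769, 2891 and 4360.3 in HT1, HT2 and HT3 and 2731, 2445 and 2773 in WT1, WT2 and WT3, a log2 fold change of 0.57 (SE 0.201, limma unadjusted p = 0.0266, adjusted p = 0.976). Cdk1, the mitotic kinase, was 605, 442 and 575 in HT1, HT2 and HT3 and 404, 340.0 and 426 in WT1, WT2 and WT3, a log2 fold change of 0.46. Here HT1 and HT3 were well above all other libraries, and HT2 was only just above the highest WT library.

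Aurkb, the kinase of the chromosomal passenger complex, was 304, 353 and 322 in HT1, HT2 and HT3 and 277, 213 and 231 in WT1, WT2 and WT3, a log2 fold change of 0.44. Bub1b, a spindle checkpoint kinase, was 536, 412 and 599 in HT1, HT2 and HT3 and 351, 249 and 393 in WT1, WT2 and WT3, a log2 fold change of 0.65. In Aurkb the En2-low HT2 was the highest library, and in both genes WT2 was the lowest. Cdc20, an activator of the anaphase-promoting complex, and Hmmr, a spindle protein, had log2 fold changes of 0.51 and 0.61, and Cenpe, Kif11, Kif23 and Prc1, proteins of the kinetochore and spindle, also did not overlap. Top2a, a topoisomerase of dividing cells, was 1759, 1719 and 1813 in HT1, HT2 and HT3 and 1852, 1082 and 1611 in WT1, WT2 and WT3, with overlapping genotypes.

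The median log2 fold change of the 24 mitosis genes was 0.37, with 23 of them above 0, and 0.42 with the region term, where 9 members were higher at an unadjusted p under 0.05, beside 2.07% of all genes. The median was 0.09 within the En2-low and 0.76 within the En2-high libraries, where WT2 is the only WT library. Without WT2 the median was 0.24 and 10 members were higher in each HT library, beside 10.6% of all genes under that setting. The count was 16 without HT2 (15.1% of all genes), 16 without WT1 (5.95%) and 5 after quantile normalization (2.84%), with 0 lower in each case. Atoh1, which marks the dividing granule cell precursors of the cerebellum, was 262, 0.871 and 228 in HT1, HT2 and HT3 and 0, 66.9 and 0 in WT1, WT2 and WT3, lower in WT2 than in HT1 and HT3. The part of such precursors in the mitosis values was not tested.

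Eomes, a factor of intermediate progenitors of the cortex that is also expressed in the developing cerebellum, was 1297, 1024 and 1489 in HT1, HT2 and HT3 and 579.6, 391 and 873 in WT1, WT2 and WT3, a log2 fold change of 1.11 (SE 0.305, limma unadjusted p = 0.00884, adjusted p = 0.976). It was the only telencephalic gene of 12 that was higher in each HT library, beside 3.38% of all genes. The Eomes difference was 0.52 within the En2-low and 1.83 within the En2-high libraries. Tbr1, which follows Eomes in cortical neurons, went with Emx1 instead, as its values above show. Of 18 progenitor and radial glia genes, Eomes and Hopx were higher in each HT library, and none was lower, beside 3.38% and 3.97% of all genes. Hopx, a gene of outer radial glia and astrocyte precursors, was 635, 295 and 367 in HT1, HT2 and HT3 and 130.2, 271 and 258 in WT1, WT2 and WT3, a log2 fold change of 0.97. With any 1 library left out, the log2 fold change of Hopx was between 0.63 and 1.21. The median of that list was 0.17. Sox2, Nes and Pax6 overlapped, with log2 fold changes of -0.33, 0.05 and 0.86.

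Among 21 genes of excitatory neurons, Neurod1 was higher and Cux1 lower in each HT library, beside 3.38% and 3.97% of all genes. Neurod1, a differentiation factor abundant in cerebellar granule cells, was 2867, 1116 and 2882 in HT1, HT2 and HT3 and 895, 1083 and 1102 in WT1, WT2 and WT3, a log2 fold change of 1.04, where the difference came from HT1 and HT3 and HT2 lay next to the WT libraries. Cux1, an upper-layer cortical factor, was 5296, 6116 and 5767 in HT1, HT2 and HT3 and 8085, 6800.5 and 8028 in WT1, WT2 and WT3, a log2 fold change of -0.41 (SE 0.124, limma unadjusted p = 0.0132, adjusted p = 0.976). The median of the list was -0.47, and -0.11 with the region term. The 42 synaptic genes had a median of -0.11, and 2 of them, Dlg4 and Stx1a, were lower in each HT library (3.97% of all genes). With the region term the synaptic median was -0.16, and 5 members were lower and 0 higher at an unadjusted p under 0.05, beside 2.3% and 2.07% of all genes. Dlg4, the scaffold of the excitatory postsynapse, was 9819, 12231 and 10931 in HT1, HT2 and HT3 and 14566, 12529 and 13241 in WT1, WT2 and WT3, a log2 fold change of -0.29 (limma unadjusted p = 0.0619).

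Immediate early genes, which respond to neuronal activity and to handling of tissue, were lower for Fos (205, 154 and 203 in HT1, HT2 and HT3 and 288, 238 and 286 in WT1, WT2 and WT3) and Fosb (30.1, 63.8 and 43.3 in HT1, HT2 and HT3 and 122, 64.0 and 87.0 in WT1, WT2 and WT3). Their log2 fold changes were -0.54 and -0.99, with limma unadjusted p-values of 0.034 and 0.0369, and HT2 and WT2 were nearly equal in Fosb. The list median was -0.32, and 0.02 with the region term. Of 15 such genes Btg2 was higher (3.38% of all genes) and 2, Fos and Fosb, were lower in each HT library (3.97%), and Egr1, Arc and Junb overlapped, with Fosl2, Egr3 and Junb following Emx1.

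Target genes of the Wnt and p53 pathways, which CHD8 has been described to repress, are given next, and no direction is assumed for the newborn brain. Of 19 tested Wnt/beta-catenin target genes none was separated by genotype, beside 7.35% of all genes, and their median was 0.21, or 0.10 with the region term. Axin2, the feedback inhibitor, was 1742, 1153 and 1679.8 in HT1, HT2 and HT3 and 1227, 2181 and 1528 in WT1, WT2 and WT3. The 20 p53 target genes had a median of 0.16, or 0.03 with the region term. Bbc3, the pro-apoptotic Puma gene, was lower in each HT library (430.1, 421 and 501 in HT1, HT2 and HT3 and 618, 622 and 702 in WT1, WT2 and WT3), a log2 fold change of -0.52 (SE 0.147, limma unadjusted p = 0.00975, adjusted p = 0.976), and Btg2, listed here too, was higher, which is 1 in each direction beside 3.97% and 3.38% of all genes. Cdkn1a, the cell cycle inhibitor of the same pathway, was 1938, 815 and 2187 in HT1, HT2 and HT3 and 799.8, 2111 and 1211 in WT1, WT2 and WT3 and followed En2. Of 22 genes of SWI/SNF and other remodelers, 21 had a log2 fold change below 0, with a median of -0.18, and 1, the subunit gene Smarcd3, was separated (7.35% of all genes), at 2354, 3673 and 3261 in HT1, HT2 and HT3 and 4880.4, 3757 and 4150.4 in WT1, WT2 and WT3. That median was -0.10 with the region term. The 53 tested autism risk genes had a median of -0.11, and 4 of the 53, Dyrk1a, Katnal2 and Tsc2 among them, were lower in each HT library, beside 3.97% of all genes.

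All 31 genes of the cytosolic ribosome had a log2 fold change below 0, with a median of -0.28. These genes were also lower in En2-high than in En2-low libraries, by a median of 0.65. Their median log2 fold change was -0.11 with the region term, 0.02 within the En2-low and -0.21 within the En2-high libraries. It was -0.13 without HT1 and -0.54 without HT2. Rpsa, the ribosomal protein and laminin receptor gene, was alone in being separated (7.35% of all genes), at 21559, 27974 and 24314 in HT1, HT2 and HT3 and 35174, 29237 and 32437 in WT1, WT2 and WT3. The 30 genes of oxidative phosphorylation had a median of -0.08, and 1 of them, Ndufs3, was separated (7.35% of all genes).

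Lists of genes of other cell types were set beside these results. All 17 astrocyte genes had log2 fold changes above 0, with a median of 0.53 that was 0.19 with the region term, and none was separated, beside 7.35% of all genes. The oligodendrocyte list had a median of 0.68 and 0.29 with the region term. Of its 11 tested members 1 was higher in each HT library (3.38% of all genes). Mbp, a myelin gene and the most abundant of that list, followed En2 (2374, 629.8 and 2338 in HT1, HT2 and HT3 and 661, 1732 and 732 in WT1, WT2 and WT3). Medians of oligodendrocyte precursor, microglia and endothelial genes were 0.33, 0.17 and 0.09, or 0.14, 0.13 and 0.05 with the region term. No member was separated, beside 7.35% of all genes, and in lists this short that share leaves few genes to be found.

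Choroid plexus genes varied strongly between single libraries. Ttr, the transthyretin gene that defines this tissue, was 26007, 19816 and 319 in HT1, HT2 and HT3 and 38.1, 4402 and 15908 in WT1, WT2 and WT3, so that HT3 and WT1 were far below the other libraries. The 12 genes had a median of 1.15, which was 1.74 within the En2-low and -0.02 within the En2-high libraries. The 14 meningeal and 24 extracellular matrix genes were all above 0, with medians of 0.44 and 0.30, and no member was separated, beside 7.35% of all genes. With the region term these medians were 0.28 and 0.22. The meningeal median was 0.77 within the En2-low and -0.23 within the En2-high libraries, so that its sign turned, and the matrix median was 0.09 without HT1. Blood, pituitary and diencephalon genes had medians of -0.01, 0.00 and 0.28, which were 0.08, -0.46 and -0.28 with the region term. Cerebellar genes had a median of 0.60, or -0.19 with the region term. None of the members of these 4 lists was separated, beside 7.35% of all genes, and the part of tissue composition in these medians was not tested.

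**Figure D5:**
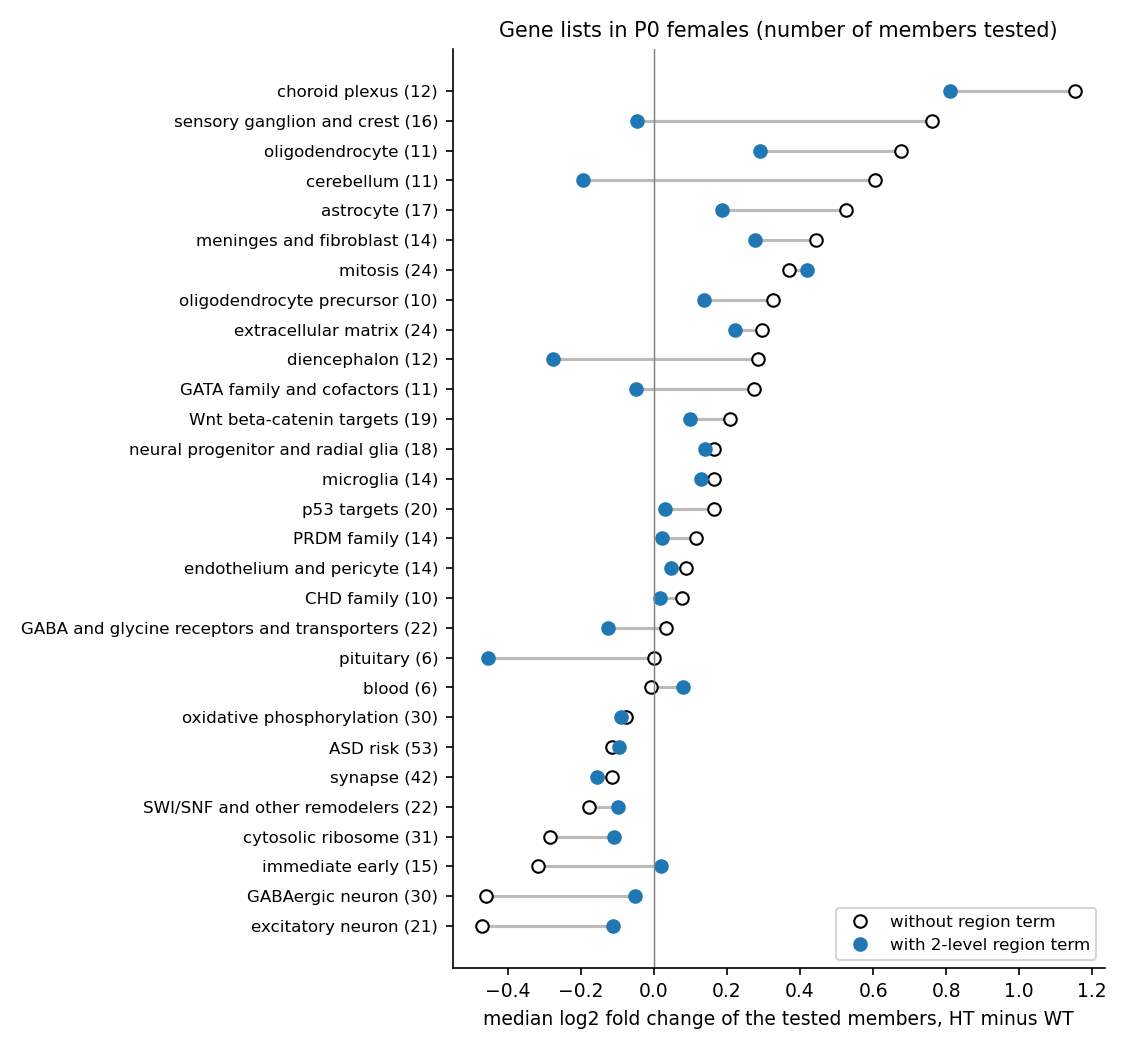
Median log2 fold change (HT minus WT) of the tested members of 29 gene lists, without (open circles) and with the 2-level region term (filled circles); the number of members tested is in parentheses. The medians of GABAergic, excitatory, astrocyte and cerebellar genes move toward 0 or past it with the term, and that of mitosis genes stays near 0.4.

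The genes whose pattern over the 6 libraries was most like that of Gad1, by Pearson correlation of log2 values over 18291 genes, were Smyd3 (r = 0.993), a lysine methyltransferase, Tmem181a (r = 0.990) and Tomm20 (r = 0.987), a receptor of the mitochondrial import pore. Smyd3 was 991, 1067 and 1151 in HT1, HT2 and HT3 and 1542, 1432 and 1336 in WT1, WT2 and WT3. The closest to Trps1 included Sigirr (r = 0.996) and Stard9 (r = 0.989), a kinesin of the mitotic spindle, which was 1534, 1582 and 1434 in HT1, HT2 and HT3 and 1194, 1190.3 and 1147 in WT1, WT2 and WT3. The closest to Prdm12 were Fasn (r = 0.991), the fatty acid synthase, Spop (r = 0.990) and Mtch1 (r = 0.985). With 6 libraries and so many genes, high correlations of this kind are a description of the libraries, and the 8 genes named were each separated by genotype as the gene they were matched to.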

How the data were processed

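The authors extracted RNA from brains, prepared libraries with a TruSeq RNA kit and sequenced them in pairs of reads. Per the labels and the methods, Salmon 1.1.0 gave transcript abundances on GRCm38, which tximport collapsed to genes and DESeq2 1.26.0 normalized. The deposited signal is an estimated count divided by normalization factors that differ between genes of a library; it was analysed as log2 of the deposited signal plus a pseudocount of 1, since whole counts could not be recovered. The annotation release is not given in the sources used here, and 29747 of 29799 genes were matched to GENCODE vM21 for names and positions. All columns were matched to a sample (0 unmatched).

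HT and WT were compared with limma 3.58.1 in R 4.3.3 (lmFit, eBayes with a trend, two-sided) wherever a gene averaged 10 or more over the 6 libraries, with Benjamini-Hochberg adjustment across every tested gene and a threshold of 0.05. The region term splits libraries at an En2 value of 100. The fit was tested on simulated data. Alternatives changed the pseudocount, filter, scaling, model and libraries. The genes named were Chd8, Gad1, Trps1, Prdm12, Emx1, En2, the DEGs, the 8 genes per direction with the smallest unadjusted p (mean of at least 50, separated genotypes, no unnamed gene models), the members of the regional, GABAergic, PRDM, GATA, CHD and sex-linked lists, of the other lists the 2 most abundant members and those with an unadjusted p under 0.05, and the 3 genes most alike in pattern. Gabrb2, Atoh1, Cenpe, Kif11, Kif23, Prc1, Sox2, Nes, Pax6, Dlg4, Stx1a, Btg2, Egr1, Egr3, Arc, Junb, Axin2, Cdkn1a, Dyrk1a, Katnal2, Tsc2, Ndufs3, Pou4f1 and Rps27a were added after their values were seen. Some genes that this rule names are not reported here. The 33 hand-written lists and the members of the comparison were chosen with earlier results of these data known. Similar transcripts of the 16 genes and of 4 others were searched with blastn (at least 95% identity over 200 bases). P-values of the main fit set the HT minus WT difference against the spread between 3 libraries of a genotype, moderated across genes by eBayes. The region-term, interaction and other models take their error from their own terms and libraries.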

Additional observations from a re-analysis of the deposited data

How the results depend on the processing

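The log2 fold changes of all 39 genes tested across the 19 alternatives kept their sign under each of them. The number of DEGs, 1 with the main settings, was 0 with a minimum mean of 100, 0 in 1 model of the 12 P0 libraries and 20 in 1 model of all 36 libraries, and it ranged from 0 (without any 1 of the WT libraries) to 2 (without HT2) when each library was left out. In the 36-library model, which takes its error from all ages, Gad1, Trps1, Ror1, Tanc1, Entpd4, Cpne5, Arhgef10l and Neurod1 passed with limma adjusted p-values of 0.0189, 0.0263, 0.0263, 0.0498, 0.0345, 0.0315, 0.00692 and 0.0497. Under other alternatives the adjusted p of each of these 8 genes reached 1. When each age and sex was fitted alone, the SE of Gad1 was 0.114 in P0 females and 0.167 in P0 males. It was 0.0629 and 0.0414 in P25 females and males, and 0.0402 and 0.0463 in P80 females and males. Error pooled over all ages can thus be too small for the P0 libraries, and the calls of the 36-library model too liberal. Over all alternatives the log2 fold change of Gm8430 had adjusted p-values from 0.000214 to 0.978 (0.502 with the replicate block). The count of genes at unadjusted p under 0.05 in P0 females, 393 with the main settings, became 787 without a filter on low values, 259 with a minimum mean of 100, 2222 in the 36-library model, 4998 with array quality weights, 907 with the region covariate and 799 with the 2-level region term, and 135 (without HT1) to 1619 (without HT2) with 1 library left out. HT and WT libraries share replicate numbers, but same-numbered libraries did not deviate together (correlations of -0.578, -0.713 and -0.179), so the numbers do not pair them; with the replicate block there were 0 DEGs and 100 genes at an unadjusted p under 0.05. No other setting changed a count of DEGs or moved that at the unadjusted threshold by over 1.5 times, and 0 sex by genotype interactions were called under each of 9 alternatives. For the lower values the depth is a limit that cannot be stated, as fragment counts are not given.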

Other observations

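Genes outside the naming rule came to the top once region was in the fit, and were picked after their values were seen. Mir124a-1hg, the host transcript of a neuronal microRNA, was 3171, 5493 and 2829 in HT1, HT2 and HT3 and 2606, 1333 and 2031 in WT1, WT2 and WT3, and its log2 fold change was 1.21 with the region term (limma adjusted p = 0.206) and 0.93 without it. Among the En2-low and among the En2-high libraries the HT values were above the WT values. Gdf10, a secreted factor of the transforming growth factor family found in Bergmann glia, was 1620.3, 851 and 1615 in HT1, HT2 and HT3 and 410.1, 830.3 and 394 in WT1, WT2 and WT3, with 1.02 with the region term (limma adjusted p = 0.225). Cxcr4, the chemokine receptor that guides migrating interneurons and granule cell precursors, was 578, 1049 and 617 in HT1, HT2 and HT3 and 409.9, 302 and 564 in WT1, WT2 and WT3, with 1.05.

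Caudal Hox transcripts were highest in HT1, with Hoxb8 at 681 in HT1 and at most 1.52 in the other 5, and Hoxb5 at 2795 beside 270.0 and 322 in HT3 and WT2.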
